A study of Mus musculus with 4 samples.

Results

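The patterning transcription factor genes described here are 48 gene symbols chosen by name, each with a row in all 4 count tables, out of 31735 gene rows shared by the tables. They encode factors that set up regions and neuron lineages of the embryonic midbrain and hindbrain, and were placed in 8 groups by progenitor domain, lineage or protein family. The libraries hold ribosome-bound RNA of the rostral pons of adult, untreated control mice of the Cbln2-TRAP line NIDA172, in which EGFP fused to the ribosomal protein Rpl10a tags ribosomes, and the name of the line ties the tag to Cbln2. In translating ribosome affinity purification (TRAP), antibodies against EGFP capture tagged ribosomes with the RNA bound to them. All 4 libraries are immunopurified replicates of 1 group, with no second genotype or treatment. Whether each replicate is 1 animal or a pool is not stated in the labels, nor which regulatory DNA drives the transgene. Unbound or total RNA was not analysed here, so the values are levels within the pulldown and not enrichments. The library numbers in the descriptions fall into adjacent pairs, 2469 and 2470 (replicates 3 and 4, the second pair) and 1666 and 1667 (replicates 1 and 2, the first pair). No batch is named, and the only contrast available is between these pairs.

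In the embryo, the border between midbrain and hindbrain is a signalling centre that releases FGF8, and Engrailed and Pax factors establish and maintain it. At the dorsal edge of the hindbrain lies the rhombic lip, where Atoh1 starts the lineage of many glutamatergic neurons. They include cerebellar granule cells and neurons of the parabrachial region. Other factors select GABAergic, noradrenergic, serotonergic or cholinergic fates, and some of them stay active in adult neurons and help to keep their identity.

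Gene count totals were 12731825 and 15315942 in replicates 3 and 4, against 21140265 and 15556918 in replicates 1 and 2. Levels are in CPM, counts per 1000000 gene counts of the library, and CPM per kb of exon are used to compare genes with each other. Where a gene has 0 counts, its level may still be as high as 3 counts would give, which is 0.236 and 0.196 CPM in replicates 3 and 4, against 0.142 and 0.193 CPM in replicates 1 and 2, for counting error only. The ribosomal RNA row Rn45s took 24.2% and 9.29% of the gene counts of replicates 3 and 4, against 1.68% and 1.61% in replicates 1 and 2, and lowers the CPM of every other gene by that share. All 8 general neuronal genes and all 8 cerebellar granule cell genes fixed as markers reached 1 CPM in every library, and so did 5 of 6 oligodendrocyte genes and 5 of 7 genes of astrocytes and Bergmann glia. RNA of genes typical of granule cells and glia was thus present, and its part in the levels below was not tested.

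Most promoter windows of the members were rich in the dinucleotide CG. RefSeq start site windows (GRCm38.p6, 250 bases before to 50 after the start) were found by symbol for 38 of the 48 members, in 48 windows because some genes have several starts. Their median number of CG was 22 per window, against 7 over all 32851 windows, and their median GC content was 61.0% against 52.7%. The letters TATAAA, searched on both strands, were in 4 of the 48 windows (8.33%) and in 13.6% of all windows. Of the 48 windows, 6 held 7 CG or fewer, among them windows of Bnc2, Foxp1, Lhx9 and Pax8. A single window held no CG, an internal start of Bnc2. Windows of 3 members are given with each CG in capitals. En1 is shown as the most abundant factor of the midbrain-hindbrain border per kb, with 23 CG, and Lmx1a and Lmx1b as related genes whose ratio differed most between the library pairs, with 12 and 24 CG.
En1, chr1:120602237-120602536, plus strand: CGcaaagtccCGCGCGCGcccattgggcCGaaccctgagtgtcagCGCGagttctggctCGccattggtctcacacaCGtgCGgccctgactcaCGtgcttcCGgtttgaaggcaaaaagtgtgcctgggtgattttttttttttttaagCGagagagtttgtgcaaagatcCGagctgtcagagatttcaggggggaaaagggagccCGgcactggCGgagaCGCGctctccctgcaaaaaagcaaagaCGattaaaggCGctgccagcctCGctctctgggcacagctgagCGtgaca
Lmx1a, chr1:167689308-167689607, plus strand: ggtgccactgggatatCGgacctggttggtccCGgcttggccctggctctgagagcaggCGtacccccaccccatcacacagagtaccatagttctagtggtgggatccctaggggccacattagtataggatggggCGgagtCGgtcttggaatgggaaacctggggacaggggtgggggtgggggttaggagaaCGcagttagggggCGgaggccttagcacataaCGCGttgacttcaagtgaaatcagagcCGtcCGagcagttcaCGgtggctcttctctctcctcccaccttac
Lmx1b, chr2:33641049-33641348, minus strand: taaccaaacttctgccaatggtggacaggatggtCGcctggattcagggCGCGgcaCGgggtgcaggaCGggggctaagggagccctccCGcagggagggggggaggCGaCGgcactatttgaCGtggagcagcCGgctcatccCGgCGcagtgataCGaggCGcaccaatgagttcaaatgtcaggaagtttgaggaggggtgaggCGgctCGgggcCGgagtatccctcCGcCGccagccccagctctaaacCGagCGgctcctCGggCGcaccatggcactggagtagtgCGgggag

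Of the 48 members, 23 reached 1 CPM in all 4 libraries, 4 had no counts in any, 2 stayed at or under 3 counts in every library, and 19 were uneven. The share detected throughout, 47.9%, was near that of all shared protein-coding rows, 50.4% (9963 of 19755), while the share with no counts was lower, 8.33% against 25.0%. The members detected throughout were less abundant than other genes detected throughout, with a median of 17.5 CPM against 31.4 CPM over 10632 genes. They also varied more between libraries, with a median SD of log2(CPM + 0.5) of 0.86 against 0.67. These are descriptions without a test. The family-based groups were the most complete, with all 3 FOXP genes and all 6 TALE homeodomain genes detected throughout. The lineage groups were the least complete, with 1 of 7 GABAergic lineage genes, 1 of 5 monoaminergic lineage genes and 1 of 8 dorsoventral domain genes.

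**Figure D1:**
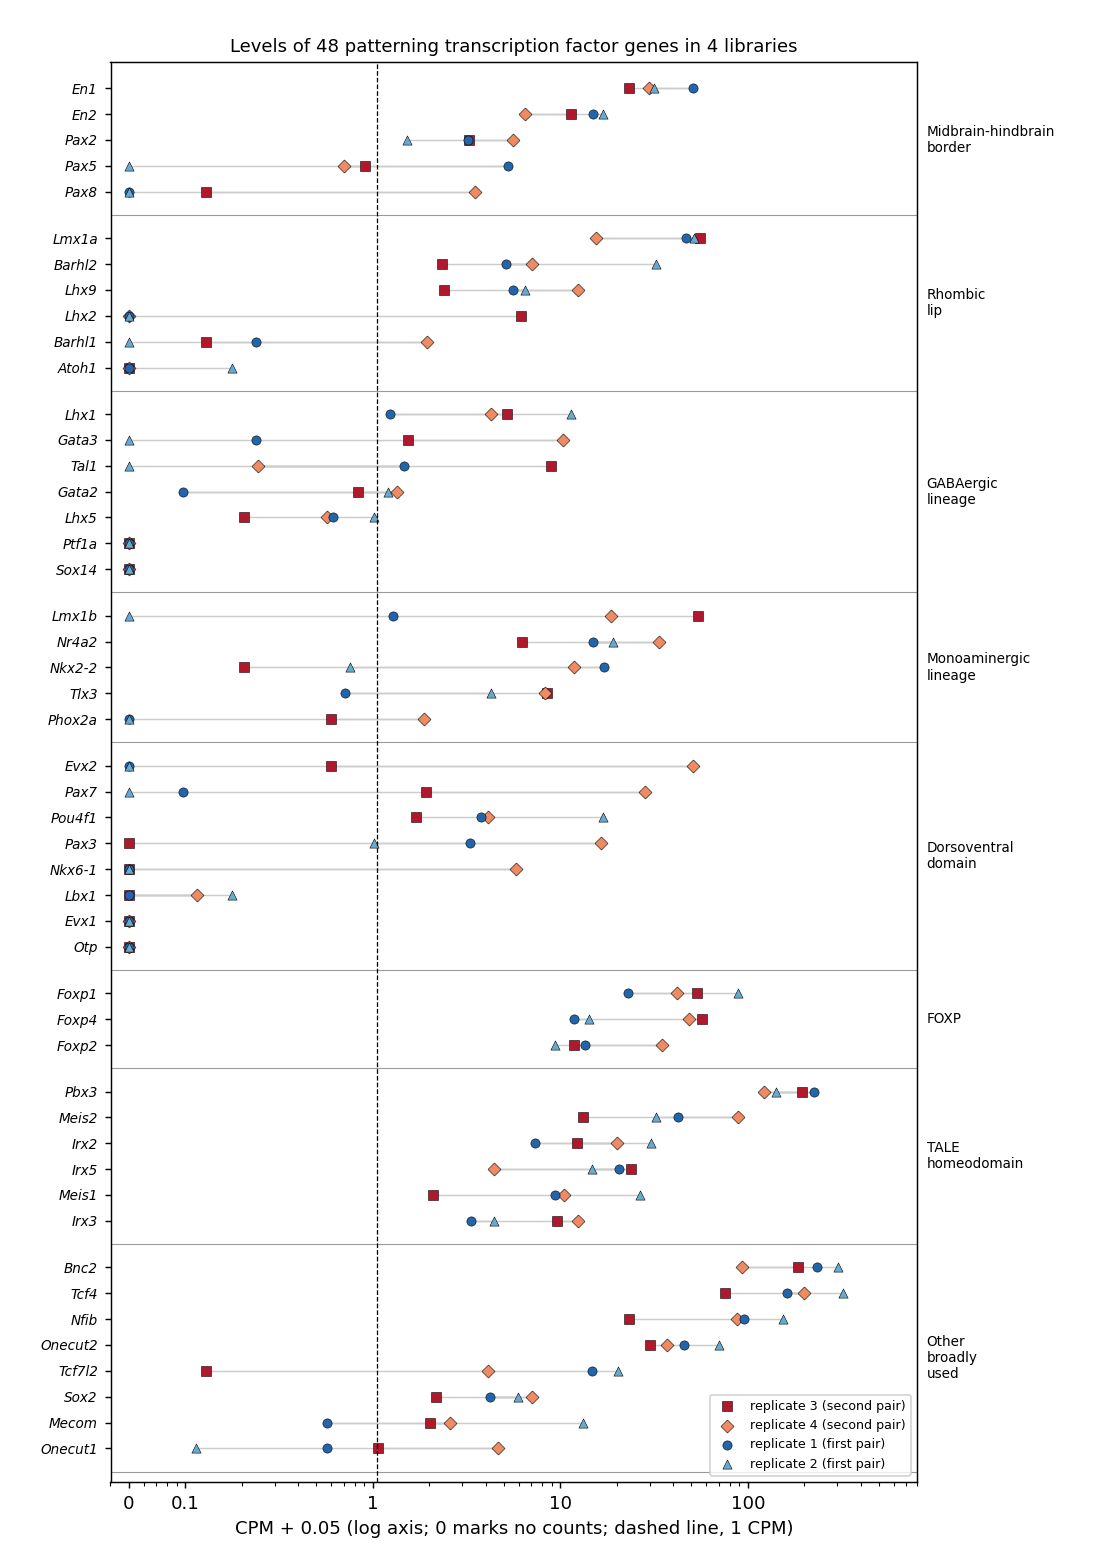
Levels of the 48 members in CPM (log axis, 0.05 CPM added so that 0 counts can be drawn), grouped by domain, lineage or family, with 1 point per library. Genes such as Pbx3, Bnc2 and En1 have their 4 points close together to the right of the 1 CPM line, while Evx2, Lhx2 and Nkx6-1 have points at 0 and 1 library far to the right.

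The most abundant members per kb were Pbx3, Bnc2, En1 and Lmx1a. Pbx3, a TALE homeodomain partner of Hox and other factors (ENSMUSG00000038718.15, chromosome 2, 34171457 to 34373142, minus strand, GRCm38), was at 194 and 122 CPM in replicates 3 and 4, against 225 and 141 CPM in replicates 1 and 2. Its level per kb, 27.9 ± 7.78 CPM per kb (SD, n = 4), was above that of 86.4% of the genes detected throughout, and its range of 1.84-fold was the narrowest of the 23. Bnc2 (ENSMUSG00000028487.18, chromosome 4, 84275095 to 84675275, minus strand), which encodes the zinc finger protein basonuclin 2, was at 184 and 92.6 CPM in replicates 3 and 4, against 234 and 302 CPM in replicates 1 and 2. Both second-pair values of Bnc2 lay below both first-pair values. The same held for other members, among them En1, En2, Nfib and Onecut2. The share of all genes whose pairs did not overlap is not given here, so such a separation does not set a member apart. Its mean of 24.9 ± 10.8 CPM per kb differed from that of Pbx3 by less than the SD. Tcf4 and Nfib were high in CPM, but their annotated exons are long. Tcf4, a basic helix-loop-helix gene used in many neurons, had 75.2 and 198 CPM in replicates 3 and 4, against 162 and 323 CPM in replicates 1 and 2, and a mean of 6.92 ± 3.75 CPM per kb.

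At the midbrain-hindbrain border, the Engrailed genes were present throughout and the Pax genes were low. En1 (ENSMUSG00000058665.8, chromosome 1, 120602418 to 120607992, plus strand), a homeodomain gene of the midbrain and the first hindbrain segment, was at 23.2 and 29.5 CPM in replicates 3 and 4, against 50.8 and 31.7 CPM in replicates 1 and 2. Replicate 1 was the highest and the other 3 lay close together. En2, its paralog, which is also expressed in the adult cerebellum, was at 11.4 and 6.46 CPM in replicates 3 and 4, against 15 and 16.9 CPM in replicates 1 and 2. Replicate 4 had the lowest En2 level. Per kb, En1 averaged 12.9 ± 4.53 CPM per kb and En2 3.51 ± 1.3 CPM per kb (SD, n = 4 each). Of the Pax genes that act with them in the embryo, Pax2 was at 3.22 and 5.55 CPM in replicates 3 and 4, against 3.17 and 1.48 CPM in replicates 1 and 2. Pax5 had 0.864 and 0.653 CPM in replicates 3 and 4, against 5.2 and 0 CPM in replicates 1 and 2, so that a single library, replicate 1, held most of it. Pax8 was at 0.0785 and 3.46 CPM in replicates 3 and 4, against 0 and 0 CPM in replicates 1 and 2, with counts almost only in replicate 4. Some reads of Pax5 and Pax8 can come from antisense genes that overlap their exons, since the strand setting is not given in the sources used here.

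Among rhombic lip genes, the start of the lineage was at background and several later factors were present. Atoh1, the proneural gene of the rhombic lip, which is switched off as neurons mature, had 2 counts in replicate 2 and none in the others. Lmx1a (ENSMUSG00000026686.14, chromosome 1, 167689237 to 167848741, plus strand), a LIM homeodomain gene of the roof plate and of rhombic lip derivatives, was the highest of the group at 55.8 and 15.4 CPM in replicates 3 and 4, against 47 and 51.6 CPM in replicates 1 and 2. Replicate 4 stood below the other 3, which were within 1.19-fold of each other. Barhl2 was at 2.28 and 6.99 CPM in replicates 3 and 4, against 5.06 and 32.4 CPM in replicates 1 and 2. Its high library was replicate 2, where the summed level of the granule cell list was highest too, with 189 and 320.2 CPM in replicates 3 and 4, against 639 and 1539 CPM in replicates 1 and 2, and the part of granule cells in the Barhl2 level was not tested. Barhl1, a homeodomain gene of granule cells and other rhombic lip derivatives, reached 1.89 CPM in replicate 4 and at most 0.189 CPM in the other 3 libraries, including replicate 2, where it had no counts. Lhx9, a LIM homeodomain gene that follows Atoh1, was at 2.36 and 12.3 CPM in replicates 3 and 4, against 5.53 and 6.43 CPM in replicates 1 and 2. Lhx2, its paralog, had 78 counts (6.13 CPM) in replicate 3 and 0 counts in the other 3.

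The GABAergic lineage genes were low. Ptf1a, which starts GABAergic fates in the cerebellar and hindbrain alar plate, and Sox14, a factor of some midbrain and hindbrain GABAergic neurons, had no counts in any library. Lhx1, a LIM homeodomain gene that Purkinje cells also express, was at 5.18 and 4.24 CPM in replicates 3 and 4, against 1.18 and 11.4 CPM in replicates 1 and 2. It was highest in replicate 2, where the summed Purkinje cell list was highest as well. That list had 731 and 701 CPM in replicates 3 and 4, against 1464 and 2470 CPM in replicates 1 and 2. Most of the sum in replicate 2 was Itpr1 (1706 CPM) and Car8 (560 CPM). Pvalb was also highest there, while Calb1, Pcp2, Pcp4 and Skor2 of the list were highest in other libraries. The part of Purkinje cells in the Lhx1 level was not tested. Lhx5 stayed between 0.157 and 0.964 CPM. Gata2 lay between 0.0473 and 1.31 CPM, with its lowest level in replicate 1. Gata3, which acts in GABAergic and serotonergic lineages, was at 1.49 and 10.3 CPM in replicates 3 and 4, against 0.189 and 0 CPM in replicates 1 and 2. Tal1, a basic helix-loop-helix partner of the Gata factors, was at 8.88 and 0.196 CPM in replicates 3 and 4, against 1.42 and 0 CPM in replicates 1 and 2. The high library was replicate 4 for Gata3 and replicate 3 for Tal1, so these partners were not high together. Of the genes of GABA and glycine transmission, Gad1 and Gad2, which encode the enzymes of GABA synthesis, were above all of these factors in CPM in every library, while the glycine transporter gene Slc6a5 was below Lhx1 in 3 libraries. The 4 genes together summed to 139 and 736 CPM in replicates 3 and 4, against 438 and 412 CPM in replicates 1 and 2. In bulk RNA, fewer cells of a type and less RNA per cell cannot be told apart.

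Monoaminergic lineage genes differed from each other in the libraries where they were high. Phox2a, which specifies noradrenergic neurons, had no counts in replicates 1 and 2, and was at 0.550 and 1.83 CPM in replicates 3 and 4. Its exons overlap those of the more broadly used gene Inppl1 on the other strand. Tlx3, a homeodomain gene needed for noradrenergic centres and for some glutamatergic neurons, was at 8.48 and 8.29 CPM in replicates 3 and 4, against 0.662 and 4.24 CPM in replicates 1 and 2. The second-pair levels of Tlx3 lay above both first-pair levels. Lmx1b (ENSMUSG00000038765.13, chromosome 2, 33560965 to 33640511, minus strand), a LIM homeodomain gene of serotonergic neurons and also a marker of parabrachial glutamatergic neurons, was at 54.5 and 18.7 CPM in replicates 3 and 4, against 1.23 and 0 CPM in replicates 1 and 2. Here too the pairs did not overlap, which without the share over all genes does not set Tlx3 or Lmx1b apart. For Lmx1b, replicate 3 was 2.92 times replicate 4. Nr4a2, a nuclear receptor gene of dopaminergic neurons and many glutamatergic ones, was the only gene of this group detected throughout, at 6.2 and 33.8 CPM in replicates 3 and 4, against 14.9 and 19 CPM in replicates 1 and 2. Nkx2-2, a ventral homeodomain gene of serotonergic and oligodendrocyte lineages, was at 0.157 and 11.8 CPM in replicates 3 and 4, against 17 and 0.707 CPM in replicates 1 and 2, and has an overlapping antisense gene.

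The enzyme and transporter genes of these transmitters were measured beside the members. The noradrenergic list summed to 79.5 and 344 CPM in replicates 3 and 4, against 91.6 and 37.7 CPM in replicates 1 and 2, and the serotonergic list to 26.6 and 135 CPM in replicates 3 and 4, against 32.2 and 24.9 CPM in replicates 1 and 2. The lists share Slc18a2, the vesicular monoamine transporter gene, and Ddc, and Slc18a2 alone was at 15.6 and 92.6 CPM in replicates 3 and 4, against 26.7 and 16.3 CPM in replicates 1 and 2. Both lists were highest in replicate 4, as were Phox2a, Nr4a2 and Gata3, while Lmx1b and Tlx3 were highest in replicate 3. The dopamine transporter gene Slc6a3, which defines dopaminergic neurons, had no counts in any library.

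Dorsoventral domain genes were mostly low, and 4 of the 8 were uneven between libraries. Pou4f1, a POU homeodomain gene of dorsal sensory neurons, was the only gene of the group detected throughout, with 1.65 and 4.05 CPM in replicates 3 and 4, against 3.74 and 16.8 CPM in replicates 1 and 2. Pax3, a gene of the dorsal neural tube, was at 0 and 16.5 CPM in replicates 3 and 4, against 3.26 and 0.964 CPM in replicates 1 and 2. Its paralog Pax7 had 1.89 and 28.1 CPM in replicates 3 and 4, against 0.0473 and 0 CPM in replicates 1 and 2. Both were highest in replicate 4. Evx2, a homeodomain gene of interneuron lineages, was at 0.55 and 51.1 CPM in replicates 3 and 4, against 0 and 0 CPM in replicates 1 and 2, that is, 783 counts in replicate 4, 7 in replicate 3 and 0 in the others. Nkx6-1, a ventral homeodomain gene, had 88 counts (5.75 CPM) in replicate 4 and 0 counts elsewhere. Evx1 and Otp had no counts, and Lbx1 had at most 2 counts in a library. In replicate 4 the choroid plexus and ependymal list also stood high, with a summed 8.56 and 125 CPM in replicates 3 and 4, against 6.39 and 9.26 CPM in replicates 1 and 2. Most of that sum was Ttr, which encodes transthyretin, at 1.41 and 106 CPM in replicates 3 and 4, against 0 and 2.89 CPM in replicates 1 and 2. Its choroid plexus gene Folr1 was at 0 counts in all libraries, and the part of such cells in the high members was not tested.

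FOXP and TALE genes were present in every library, with different library profiles. Foxp1 was at 53.6 and 42.1 CPM in replicates 3 and 4, against 22.8 and 88.6 CPM in replicates 1 and 2. Foxp2, a forkhead gene that marks some parabrachial and other pontine neurons, was at 11.9 and 34.8 CPM in replicates 3 and 4, against 13.5 and 9.38 CPM in replicates 1 and 2, with 1 high library, replicate 4. For Foxp4 the values were 57 and 48.4 CPM in replicates 3 and 4, against 11.7 and 14.1 CPM in replicates 1 and 2. The pairs did not overlap, as for several other members. The share of all genes for which this held is not given here, so it does not set a member apart. Meis1 and Meis2 encode cofactors of homeodomain proteins. Meis1, which granule cells also express, was at 2.04 and 10.4 CPM in replicates 3 and 4, against 9.32 and 26.4 CPM in replicates 1 and 2, highest in the library with the highest granule cell list. Meis2 was at 13.2 and 88.9 CPM in replicates 3 and 4, against 42.6 and 32.5 CPM in replicates 1 and 2, highest in replicate 4. The Iroquois genes differed in profile within the family. Irx2 was highest in replicate 2 with 12.3 and 19.98 CPM in replicates 3 and 4, against 7.28 and 30.4 CPM in replicates 1 and 2. Irx3 was at 9.5 and 12.3 CPM in replicates 3 and 4, against 3.31 and 4.37 CPM in replicates 1 and 2, higher in both second-pair libraries. Irx5 was at 23.8 and 4.37 CPM in replicates 3 and 4, against 20.4 and 14.8 CPM in replicates 1 and 2, lowest in replicate 4, where Irx3 was highest.

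Among the remaining broadly used genes, Onecut2 and Nfib were abundant in CPM. Onecut2 was at 29.9 and 36.9 CPM in replicates 3 and 4, against 45.8 and 70.2 CPM in replicates 1 and 2. Nfib, a nuclear factor I gene of both neurons and glia, had 23.3 and 87.2 CPM in replicates 3 and 4, against 95.3 and 153 CPM in replicates 1 and 2. Replicate 3, lowest for Nfib, was also lowest for the summed list of astrocytes and Bergmann glia (254 and 1576 CPM in replicates 3 and 4, against 868 and 1048 CPM in replicates 1 and 2), and the part of glia in the Nfib level was not tested. Sox2, a gene of neural progenitors and of glia, was at 2.12 and 6.99 CPM in replicates 3 and 4, against 4.16 and 5.91 CPM in replicates 1 and 2, lowest in the same library. Tcf7l2, a Wnt pathway factor that also marks maturing oligodendrocytes, was at 0.0785 and 4.05 CPM in replicates 3 and 4, against 14.7 and 20.2 CPM in replicates 1 and 2, with 1 count in replicate 3. The oligodendrocyte list was lowest in that library too, with 413 and 2375 CPM in replicates 3 and 4, against 1417 and 1716 CPM in replicates 1 and 2, and its part was not tested. Mecom, a zinc finger gene, was at 1.96 and 2.55 CPM in replicates 3 and 4, against 0.52 and 13.1 CPM in replicates 1 and 2. Onecut1 was at 1.02 and 4.64 CPM in replicates 3 and 4, against 0.52 and 0.0643 CPM in replicates 1 and 2. A long noncoding RNA gene without a row of its own, Gm20649, overlaps 52.8% of its exon length on the same strand. Some of the Onecut1 reads can therefore come from that gene.

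**Figure D2:**
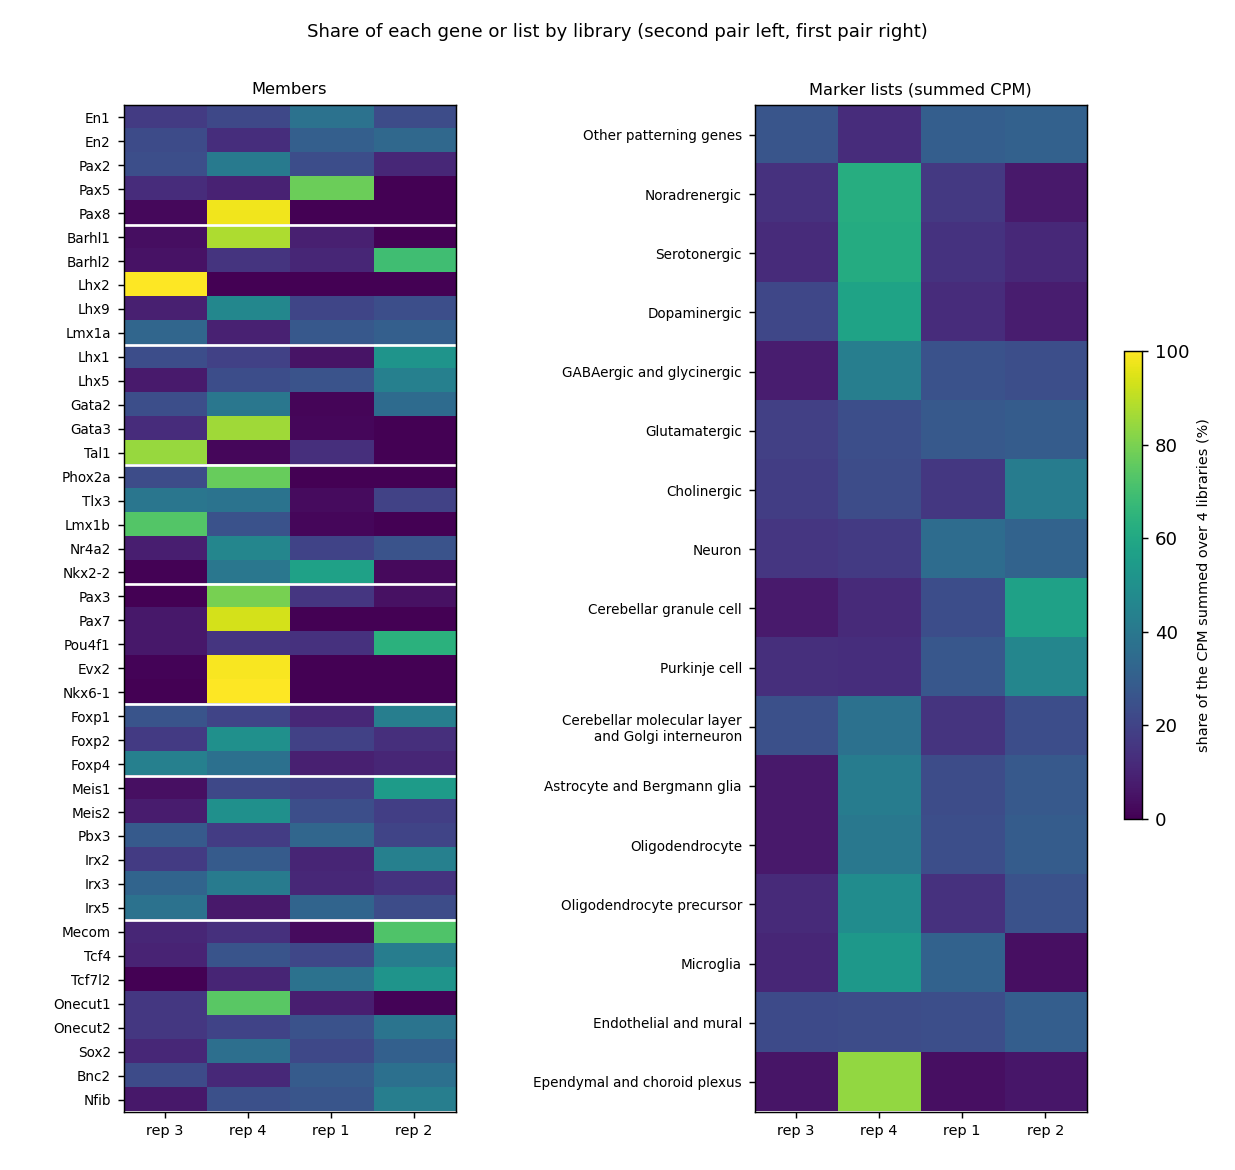
Share of the CPM summed over 4 libraries that each library holds (colour, percent), for the 42 members with more than 3 counts in a library (left, white lines between groups) and for the marker lists (right). Replicate 4 holds nearly all of Pax8, Pax7, Evx2 and Nkx6-1 and 62.2% of the noradrenergic list, and replicate 2 holds 57.3% of the granule cell list.

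Replicates 4 and 2 held the highest value of most members. Of the 41 members at 1 CPM or more in at least 1 library, 17 were highest in replicate 4 (41.5%, against 30.8% of 13363 protein-coding genes) and 7 in replicate 3 (17.1% against 18.8%), while 13 were highest in replicate 2 (31.7% against 24.2%) and 4 in replicate 1 (9.76% against 26.2%). No test was made of these shares, since the genes of a library are not independent.

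Ratios between members were compared in each library, where library size cancels except for the pseudocount. They are log2 ratios of CPM per kb with a pseudocount of 0.5 CPM per kb, which weighs most where a gene is near 0. Of 16 pairs, 10 had a ratio on the same side in all 4 libraries, and 4 of these had a mean over 2 SD. The pairs are of one gene family, except Tcf4 and Tcf7l2, which share a name but not a family. That pair is in all of these counts. The exact two-sided sign-flip permutation test has 16 sign patterns with 4 libraries, so that its smallest p is 0.125, and all 10 reached it (adjusted p = 0.200 over 16 pairs). The test cannot pass 0.05, and the direction in each library and the SD describe the pairs.

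En1 exceeded En2 by a log2 ratio of 1.75 ± 0.54 (SD, n = 4), or 3.36-fold. The ratio was 1.33 and 2.34 in replicates 3 and 4, against 2.07 and 1.25 in replicates 1 and 2, above 0 in every library. Tcf4 exceeded Tcf7l2, which is not of its family, by 2.34 ± 0.64, and by 4.97 ± 1.62 without division by length. Exon length (27.4 kb for Tcf4, 8.78 kb for Tcf7l2) and the pseudocount both enter this difference. Tcf7l2 was at only 0.00895 and 0.461 CPM per kb in replicates 3 and 4. With a pseudocount of 0.1 CPM per kb the ratio was 3.12 ± 1.34. Foxp4 exceeded Foxp2 by 2.01 ± 0.93, but by 0.77 ± 1.03 without division by length, within the spread, because the annotated Foxp2 exons are 3.32 times as long. Pax2 exceeded Pax8 by 0.84 ± 0.31, a value set by the pseudocount because Pax8 was near 0 in 3 libraries.

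The Lmx1a to Lmx1b ratio varied most. It was 0.54 and 0.22 in replicates 3 and 4, against 4.25 and 4.97 in replicates 1 and 2. In the second pair the related genes were near parity per kb, while in the first Lmx1a far exceeded Lmx1b, and the mean of 2.50 ± 2.46 was near its SD. Meis2 over Meis1 (1.31 ± 0.96), Foxp1 over Foxp2 (1.42 ± 1.04), Lhx1 over Lhx5 (1.23 ± 0.79) and Onecut2 over Onecut1 (2.01 ± 1.05) were above 0 in all 4 libraries with a mean under 2 SD. Without division by length, Onecut2 over Onecut1 was 4.92 ± 1.74, and the overlap of Onecut1 with a noncoding gene bears on both values. Barhl1 was below Barhl2 in all 4 libraries (-2.62 ± 1.52). For the other 6 pairs the direction was not the same in every library. Irx3 over Irx5, for example, was -1.04 and 1.39 in replicates 3 and 4, against -2.05 and -1.33 in replicates 1 and 2.

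**Figure D3:**
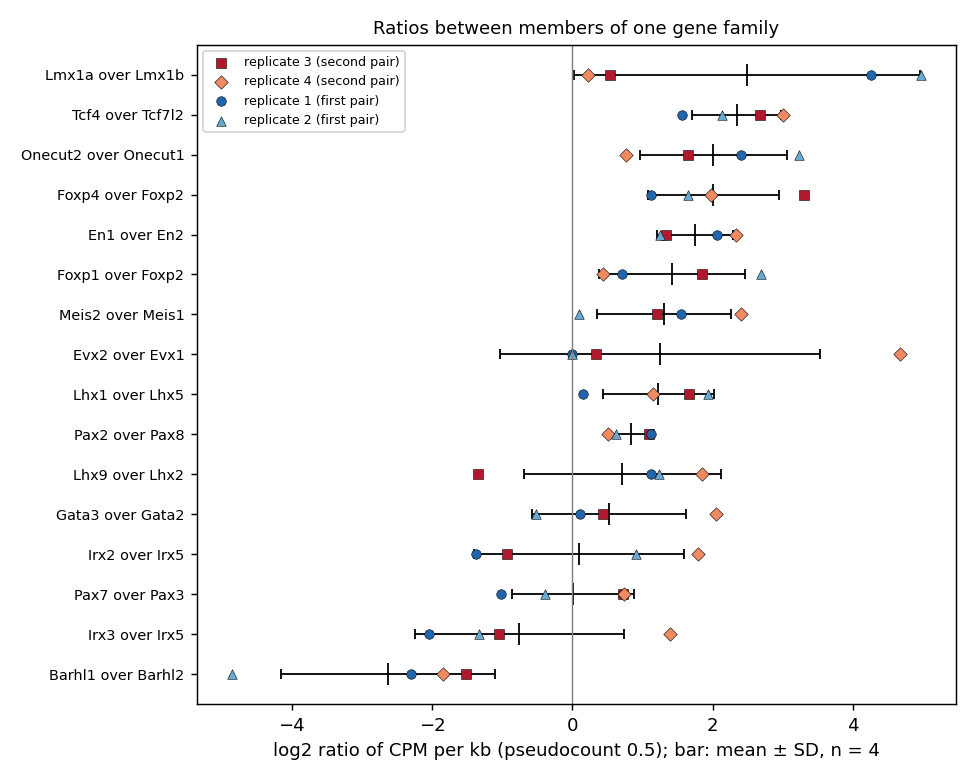
Log2 ratio of CPM per kb between members of a family (for Tcf4 over Tcf7l2, of a shared name only), with 1 point per library and a bar for the mean ± SD (n = 4). En1 over En2 lies between 1.25 and 2.34, while Lmx1a over Lmx1b has both second-pair points near 0 and both first-pair points above 4.

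Replicates 3 and 4 were set against replicates 1 and 2 with edgeR's quasi-likelihood test over 13905 genes. This contrast measures differences between replicates of 1 group. No member was called at an adjusted p under 0.05, against a background of 176 called genes (1.27%, with 0.712% higher and 0.554% lower in the second pair). Of the 48 members 35 passed the filter on low counts, and 6 of them had an unadjusted p under 0.05 (17.1%), near the 16.8% of all tested genes. Their median log2 change was -0.20, against -0.03 over all tested genes. DESeq2 gave an adjusted p to 37 of the 44 members with counts and called 4 (10.8%), namely Pax7, Lmx1b, Foxp4 and Gata3, near the 9.93% (1398 of 14077) that it called among all genes with an adjusted p.

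Pax7 and Lmx1b were nearest to the threshold. Lmx1b averaged 36.6 CPM in the second pair and 0.615 CPM in the first, a log2 change of 5.92 (SE 1.36, edgeR adjusted p = 0.057). Pax7 averaged 15 CPM in the second pair and 0.0237 CPM in the first, with a log2 change of 8.72 (SE 1.98, edgeR adjusted p = 0.0551) that depends on the prior count. The Pax7 counts were 455 in the second pair and 1 in the first, a ratio of 595 with a 95% exact interval of 106 to 23560 for counting error. Of the 455 counts, 431 were in replicate 4 and 24 in replicate 3, and the interval leaves out this spread between libraries. Foxp4 averaged 52.7 CPM in the second pair and 12.9 CPM in the first, a log2 change of 2.05 (SE 0.60, edgeR adjusted p = 0.106). Gata3 had a log2 change of 5.73 (SE 2.18, edgeR adjusted p = 0.201). Lower values in the second pair were seen for Tcf7l2, with -3.16 (SE 1.38, edgeR adjusted p = 0.267), and Nfib, with -1.22 (SE 0.54, edgeR adjusted p = 0.276). Without replicate 1 or without replicate 2, Lmx1b was called (adjusted p = 3.41e-08 and 0.000764), and so was Pax7 (0.00193 and 0.00645). Without replicate 4 Lmx1b was called (8.33e-06) and Pax7 was not (0.71), and without replicate 3 Pax7 was called (0.000431) and Lmx1b was not (0.161). Both were called by DESeq2 (0.000172 for Pax7 and 3.58e-06 for Lmx1b), and over the other alternatives run the adjusted p lay between 0.00105 and 0.0587 for Pax7 and between 3.37e-06 and 0.0636 for Lmx1b.

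The 13 members that did not pass the filter were Atoh1, Barhl1, Evx1, Evx2, Lbx1, Lhx2, Lhx5, Nkx6-1, Otp, Pax8, Phox2a, Ptf1a and Sox14. Evx2 had 790 counts in the second pair and 0 in the first, at least 344-fold higher if the first pair is set to 3 counts in all, with 783 of those counts in replicate 4. Of the marker genes, 3 were called as higher in the second pair. They were the noradrenaline and dopamine synthesis gene Th (log2 change 4.47 with SE 0.92 and edgeR adjusted p = 0.0370), Lgi2 of the cerebellar interneuron list (3.10) and the neuronal tubulin gene Tubb3 (1.97). Another 5 were called as lower there, namely the granule cell genes Neurod1 (-3.75 with SE 0.57 and edgeR adjusted p = 0.0127) and Cbln3 (-2.58), the Purkinje cell genes Car8 (-2.85) and Itpr1 (-1.75), and the neurofilament gene Nefm (-2.56). Genes of the Purkinje cell and interneuron lists that were not called went both ways. In the Purkinje cell list, Pcp2 (1.85) and Calb1 (0.57) were higher in the second pair and Pvalb (-0.93) was lower. Among the interneuron genes, Grm2 (1.03) was higher, and Kit (-0.86) and Sorcs3 (-0.32) were lower. The summed neuron list was at 11097 and 11792 CPM in replicates 3 and 4, against 24870 and 22217 CPM in replicates 1 and 2. Most of it was Snap25, at 8131 and 6936 CPM in replicates 3 and 4, against 18577 and 15908 CPM in replicates 1 and 2. The list was not lower as a whole. Tubb3 and Map2 (0.28) were higher in the second pair, and Nefm, Syn1 (-0.77), Nefl (-0.49), Elavl4 (-0.10) and Rbfox3 (-0.05) were lower. How far the cells that these marker genes stand for contribute to the member values was not tested.

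**Figure D4:**
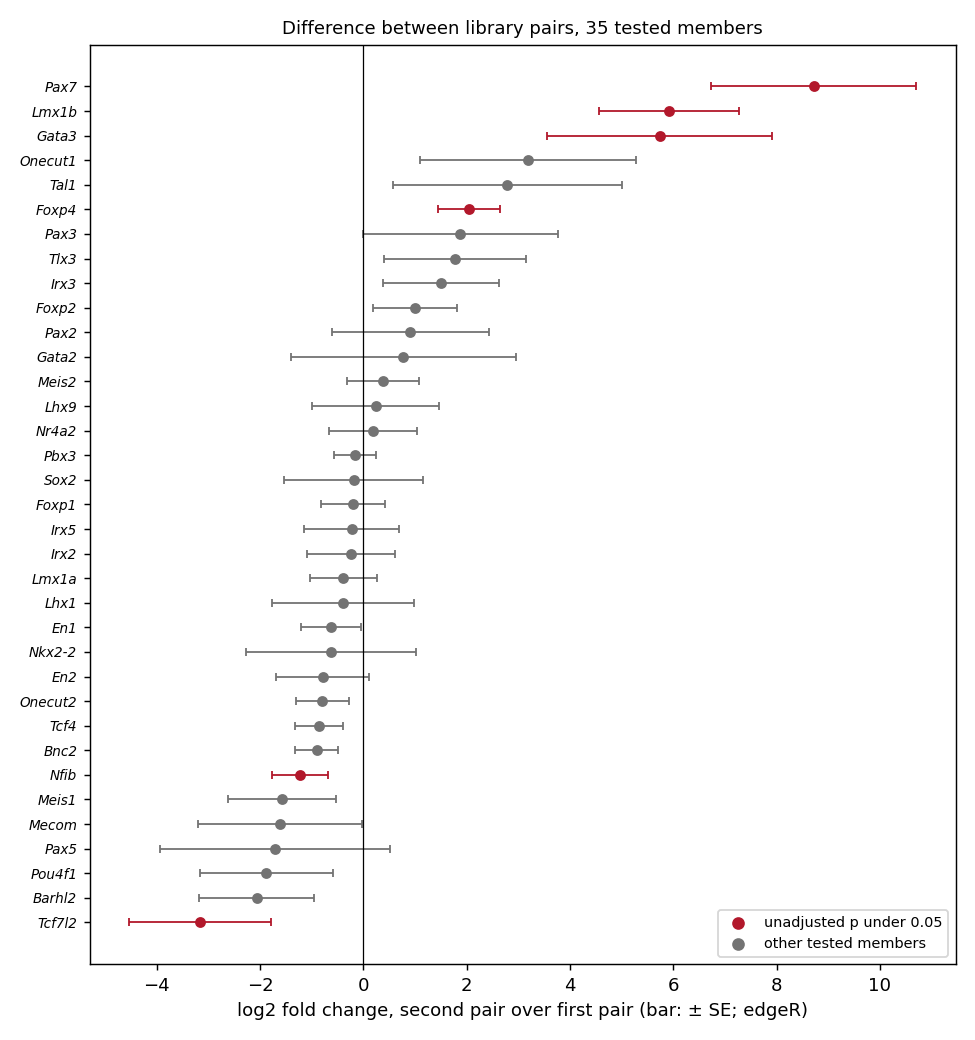
Log2 fold change of the second library pair over the first for the 35 members tested (points) with ± SE (bars), from edgeR. Pax7, Lmx1b and Gata3 lie furthest to the right and Tcf7l2 furthest to the left, and En1, Lmx1a and Pbx3 lie near 0.

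A further list of 32 patterning genes outside the 48 was read the same way. Of these, 7 reached 1 CPM in all 4 libraries and 9 had no counts. The border signal Fgf8, the border gene Gbx2, the proneural gene Neurog1, the ventral midline genes Foxa1 and Foxa2, the dopaminergic gene Pitx3, and Gfi1, Sim1 and Prdm13 were those without counts. Tfap2b, an AP-2 factor gene, was the highest, at 454 and 165 CPM in replicates 3 and 4, against 525 and 457 CPM in replicates 1 and 2. Its relative Tfap2a varied little, at 21 and 19.6 CPM in replicates 3 and 4, against 22.1 and 24.4 CPM in replicates 1 and 2. Tshz1 was at 32.9 ± 20.01 CPM, Neurod2 at 12.6 ± 3.41 CPM and Prdm8 at 9.15 ± 4.85 CPM (SD, n = 4 each). Of the 14 genes of this list that could be tested between the pairs with edgeR, 0 had an adjusted p under 0.05 and 0 an unadjusted p under 0.05, and DESeq2 called 0 of the 16 to which it gave an adjusted p.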

How the data were processed

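Ribosome-bound RNA of 4 immunopurified libraries was analysed. The deposited values are raw counts of reads for each gene symbol, not normalized, and per the submitters' processing notes they were made with STAR 2.0.0e and HTSeq on mm10. Its annotation, strand setting and counting mode are not given in the sources used here. Reads from genes that overlap, on either strand, therefore cannot be separated. HTSeq summary rows (5) and a row named unknown (0 counts) were kept out. Reads outside any feature made up 24.0% to 30.1% of a library total, reads with several alignments 28.6% to 37.2%, and ambiguous reads 1.25% to 2.07%.

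CPM used all gene rows of a library as total. Exon length was the union of exons in GENCODE M21 (GRCm38, the assembly of mm10), which can exceed the transcripts in use. The description of replicate 4 carries the replicate label of replicate 3 under its own library number; the titles were followed. A chi-square statistic of 191 times its degrees of freedom between their counts shows only that they are not the same reads, and they were treated as separate replicates on the titles alone.

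The library pairs were compared with edgeR 4.0.16, and DESeq2 1.42.0 was an alternative. The edgeR run used the quasi-likelihood F test after TMM scaling and the filterByExpr filter, with Benjamini-Hochberg adjustment over all tested genes. It was also run on counts simulated with the spread of these data, and that outcome is not given here. The SE of a log2 change is its size divided by the square root of F. Since separate animals are not stated, p-values cover only the spread between libraries, which may be technical. Sequences are from RefSeq. All 48 members are named. Values in every library are given for members at 1 CPM in all 4 libraries or 10 CPM in 1, and others by range, counts or full values. Of other genes, marker lists and other patterning genes detected throughout are named, except some not reported here. The members and lists were chosen with earlier results of these data known.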

Additional observations from a re-analysis of the deposited data

Results flagged for a closer look

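Replicates with a value far from the other 3 were found for 13 of the 42 members checked (31.0%), against 2252 of 14207 protein-coding genes under the same rule (15.9%). Chance flags about 1 in 20 groups of normal values, and CPM values are skewed. No test of the difference between these shares was made. In each case the distant value was high, as it was for 2111 of the 2252 flagged protein-coding genes. Replicate 4 was the distant library for Pax8 (3.46 CPM), Barhl1 (1.89 CPM), Gata3 (10.3 CPM), Pax7 (28.1 CPM), Evx2 (51.1 CPM), Nkx6-1 (5.75 CPM) and Foxp2 (34.8 CPM). Replicate 3 was distant for Lhx2 (6.13 CPM) and Tal1 (8.88 CPM), replicate 2 for Barhl2 (32.4 CPM), Pou4f1 (16.8 CPM) and Mecom (13.1 CPM), and replicate 1 for Pax5 (5.20 CPM). Among the 16 ratios between members, that of Evx2 over Evx1 stood apart in replicate 4 (log2 ratio 4.67). Of 17 marker lists, the serotonergic list (summed 135 CPM) and the list of ependymal and choroid plexus genes (summed 125 CPM) stood apart in replicate 4. The part of those lists in the member values was not tested.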

How the results depend on the processing

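The count of members detected throughout stayed within 1.5 times of 23 under each alternative run: 25 at a limit of 0.5 CPM, 20 at 2 CPM, 23 both without the Rn45s row in the total and with TMM library sizes, and 23 to 25 without 1 replicate. The median over the 48 members of their mean CPM, 6.61, was 4.99 to 7.02 without 1 replicate. The number of ratios between members that kept their side in all libraries with a mean over 2 SD, 4, was 3 to 5. Without 1 replicate, the mean CPM of 6 of these 23 members moved by over 1.5 times. Without replicate 2 it was 4.78 CPM for Barhl2 (11.7 CPM with all 4), 3.15 CPM for Pou4f1 (6.55), 7.27 CPM for Meis1 (12.1) and 3.54 CPM for Lhx1 (5.50), and without replicate 4 it was 11.6 CPM for Foxp2 (17.4) and 29.4 CPM for Meis2 (44.3). The count of called genes between the pairs, 176, was 1398 by DESeq2 and 875 with no filter beyond a count above 0, and between 389 and 699 without 1 replicate. The count of called members was 0 of 35 tested. By DESeq2 it was 4 of 37 with an adjusted p (10.8%), against 9.93% of all genes with an adjusted p. With no filter it was 4 of 44 members, against 875 of 18346 genes. The cause was not tested. With 1 library left in a pair, that library is assumed to vary like the other pair, and the median log2 change of all genes then lay between -0.16 and 0.19. Bnc2 was called as lower without replicate 3 (log2 change -1.64), and Nfib (-2.30) and Tcf7l2 (-7.55) without replicate 4. Evx2 entered the test and was called without replicate 1, 2 or 3 and with no filter. It was also tested by DESeq2 (adjusted p = 0.0533) and by edgeR without the Rn45s row (adjusted p = 0.0531), and was called in neither. Of 112 values of single ratios under the alternatives, 11 moved by over 1 SD without a change of sign, among them Tcf4 over Tcf7l2 (3.12 with a pseudocount of 0.1). Ratios near 0 changed sign: Pax7 over Pax3 was -0.25 with a pseudocount of 0.1, -0.33 without division by length and -0.23 to 0.36 without 1 replicate (-0.22 without replicate 3), and Irx2 over Irx5 was -0.47 to 0.59 without 1 replicate (-0.17 without replicate 2). No paired analysis was possible because there is 1 group. With 2 libraries a pair and 1 count worth 0.0473 to 0.0785 CPM, members near 1 CPM rest on few counts.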

Other observations

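Some members were present almost only in 1 library, by a rule chosen after their values were seen. Evx2, Lhx2 and Nkx6-1 had 5 CPM or more in 1 library and 0 counts in at least 2, which is 3 of the 44 members with a count (6.82%), against 165 of 14807 protein-coding genes with a count (1.11%). No test of this difference was made.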
